A study of Mus musculus with 574 samples.

Results

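Prg2, Prg3 and Epx encode proteins stored in the granules of eosinophils, the white blood cells known for their part in allergy and in defence against worms. Prg2 is major basic protein, a cationic protein that forms the crystalline core of the granule, and Prg3 is its homologue, major basic protein 2. Epx is eosinophil peroxidase, a heme enzyme of the granule matrix that is related to myeloperoxidase (Mpo) of neutrophils. In mouse bone marrow, eosinophils arise from myeloid progenitors under transcription factors of the GATA and C/EBP families, which are known to drive granule genes. The 3 genes were chosen by their measured levels in these cells, so their own levels are given as a description, with no test. They are 3 of 46078 gene rows, and all 3 were found by symbol.

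The cells were granulocyte/macrophage progenitors (GMPs) of the bone marrow of C57Bl/6 wild type mice, 6 to 12 weeks old, taken on days 0, 8, 10, 12 and 14 after a single injection of 150 mg/kg 5-fluorouracil (5-FU), a drug that kills dividing cells, or of PBS. The labels give 1 set of cells for each day other than day 8, which has 2 sets, and they name 5-FU as the treatment of every set, day 0 included. After enrichment for c-Kit, cells low in lineage markers that carried c-Kit, CD34 and FcγR on their surface but no Sca-1 were sorted singly into plates. Their cDNA was made by Smart-seq2, which covers whole transcripts and cannot tell PCR copies from separate molecules. Bones were crushed or flushed, and the labels do not say which set had which. A day other than day 8 is a single set, so day, mouse and plate cannot be told apart.

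Of 574 labelled cells, 573 had a column of counts, and 500 passed the filter of 50000 reads in genes and 1000 genes. Kept cells numbered 92 for day 0, 90 for day 8 set 1, 93 for day 8 set 2, 93 for day 10, 85 for day 12 and 47 for day 14. The shallowest kept cell had 50015 reads in genes, and the deepest cell left out had 49783. Median depth per set ran between 79451 reads on day 14 and 289938 reads in day 8 set 1. Intervals on shares are exact 95% binomial intervals and cover counting error only. Levels are in CPM, the counts of a gene scaled by the reads in all genes of the same cell or of the summed set.

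Prg2 (ENSMUSG00000027073) lies at chr2:84980461-84983632 on the plus strand of GRCm38, the same assembly as mm10, with 838 bases of exon. Prg3 (ENSMUSG00000027072) lies at chr2:84988215-84993886, also on the plus strand, 4582 bases beyond the end of Prg2, with 949 bases of exon. Epx (ENSMUSG00000052234) lies at chr11:87864000-87875536 on the minus strand, with 2737 bases of exon. No annotated gene overlaps any of the 3, so although neither the cDNA nor the library step marks the strand, no antisense gene shares their reads. The transcripts of Prg2 and Prg3 were 74.1% identical over 351 aligned bases, and their longest shared run was 23 bases. Epx and Mpo transcripts were 75.3% identical over 2004 aligned bases, with a longest shared run of 26 bases.

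The 250 bases before the annotated start are shown for Prg3 and Epx as a description of sequence. Whether the factors above act there was not tested. The sequences are from RefSeq on GRCm38.p6, whose promoter table held 2 of the 3 genes. Capitals mark matches to a GATA motif, to the C/EBP motif TTGCNNAA or to the PU.1 motif GAGGAA, each searched on both strands and with no match overlapping another. As a GATA motif, AGATAA counted, and so did AGATAG, and likewise TGATAA, and also TGATAG.
Prg3 (chr2:84987965-84988214, plus strand): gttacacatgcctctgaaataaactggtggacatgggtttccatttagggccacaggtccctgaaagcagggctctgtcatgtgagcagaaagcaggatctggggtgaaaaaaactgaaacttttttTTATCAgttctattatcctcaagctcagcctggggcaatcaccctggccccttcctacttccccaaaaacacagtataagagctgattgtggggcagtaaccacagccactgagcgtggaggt
Epx (chr11:87875537-87875786, minus strand): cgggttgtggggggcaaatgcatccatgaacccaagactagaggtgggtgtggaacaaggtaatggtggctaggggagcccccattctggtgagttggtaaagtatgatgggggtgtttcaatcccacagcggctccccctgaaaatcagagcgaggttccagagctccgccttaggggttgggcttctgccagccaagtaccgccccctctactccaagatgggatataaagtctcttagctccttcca
The Prg3 window held 1 GATA match, on the opposite strand and beginning 123 bases before the start, and no match to the other motifs. The Epx window held none of these letters. Of the 32851 promoter windows of the same length, 26.5% held a GATA match, 9.56% a C/EBP match and 23.3% a PU.1 match.

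Almost all reads of Prg2 came from 4 cells. In the 500 kept cells Prg2 had 12005 reads, of which 98.6% were in these 4 cells, and no other cell had more than 16. Prg3 had 1469 reads, of which 90.9% were in the same 4 cells, and the next cell had 27. Epx had 317 reads, of which 48.6% were in the 4 cells, and the next had 11. The 4 cells, called high cells below, are those with at least 1000 CPM of the 3 genes summed, a level set after the values were seen. The lowest of them had 6752 CPM and the next kept cell had 188 CPM. No kept cell lay between these levels.

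**Figure D1:**
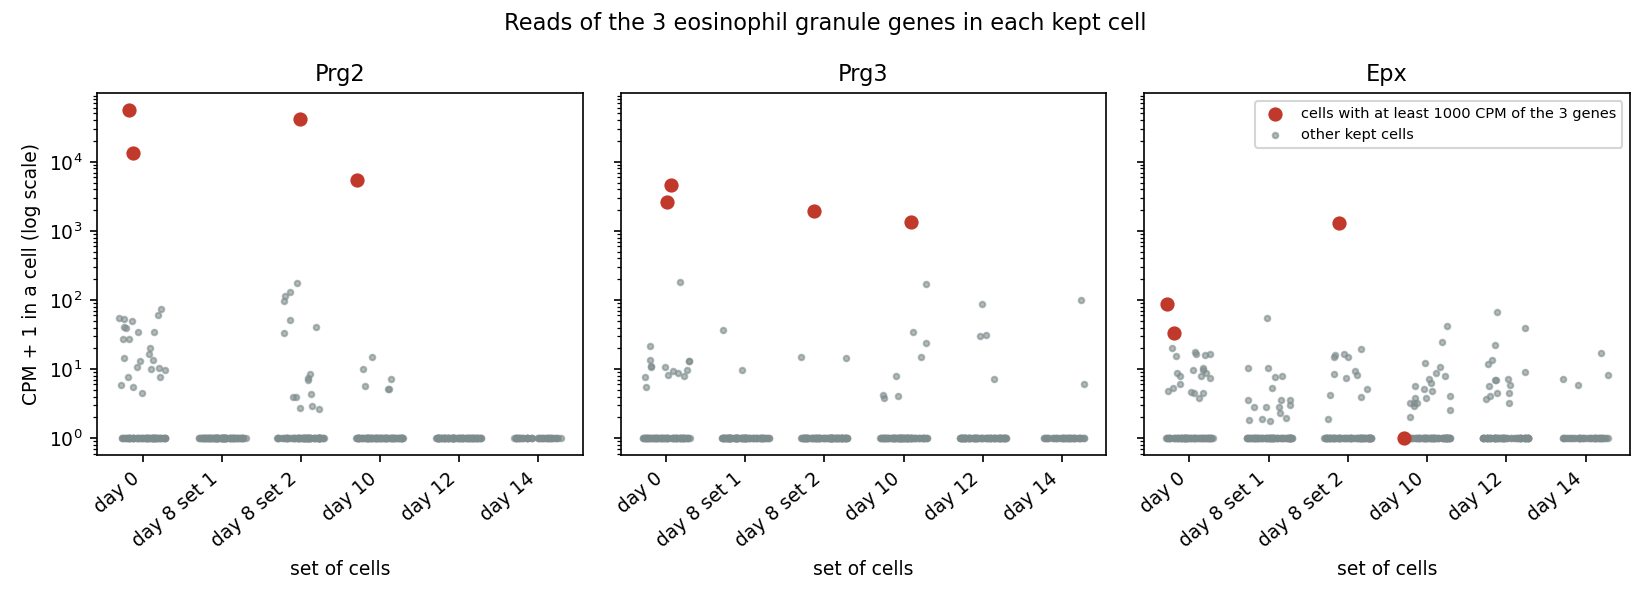
CPM + 1 of Prg2, Prg3 and Epx (log scale) in each of the 500 kept cells, by set, with the 4 high cells as large points and the other cells as small points. Prg2 reaches 5421 CPM or more in 4 cells and stays below 1000 CPM in every other cell, and in 3 sets no cell has a read of it.

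Day 0 had 2 high cells among its 92 kept cells (2.17%, interval 0.26 to 7.63%). Day 8 set 2 had 1 of 93 (1.08%, interval 0.03 to 5.85%), and day 10 had 1 of 93 with the same share and interval. Day 8 set 1, day 12 and day 14 had 0 of 90, 0 of 85 and 0 of 47, which allows shares of up to 3.33%, 3.53% and 6.38%, taken as 3 cells of the total. The upper bounds of the exact intervals of these sets are 4.02%, 4.25% and 7.55%. The exact intervals of all 6 sets overlap. Over all sets the share was 4 of 500 (0.80%, interval 0.22 to 2.04%).

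Prg2 was highest in the 3 sets that held a high cell. Summed over kept cells, Prg2 stood at 424 CPM on day 0, at 0 in day 8 set 1, 167 in day 8 set 2, 26.8 on day 10 and 0 on days 12 and 14. A count of 3 reads would have been 0.0977, 0.176 and 0.619 CPM in the 3 sets at 0. Prg3 stood at 60.6 CPM on day 0, 0.912 and 7.64 in day 8 sets 1 and 2, 7.79 on day 10, 1.41 on day 12 and 2.06 on day 14. Epx ran between 0.825 CPM on day 14 and 6.24 CPM in day 8 set 2. Without the high cells Prg2 was 5.08 CPM on day 0, 3.05 in day 8 set 2 and 0.294 on day 10. Prg3 was then 2.11 CPM on day 0, 0.0783 in day 8 set 2 and 1.29 on day 10, and Epx was 2.23, 1.17 and 1.18 CPM. The order of the sets for Prg2 was the same with and without the 4 cells, at far lower levels without them. Most of the Prg2 reads left were in wells that share a sequencing index with a high cell, as described below. Wells that share neither index, cells left out for depth included, had 2 Prg2 reads on day 0, 9 in day 8 set 2 and 0 on day 10. Whether the remaining order belongs to the other cells was not tested. In the summed counts of a set, more cells of a kind and more RNA per cell cannot be told apart.

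**Figure D2:**
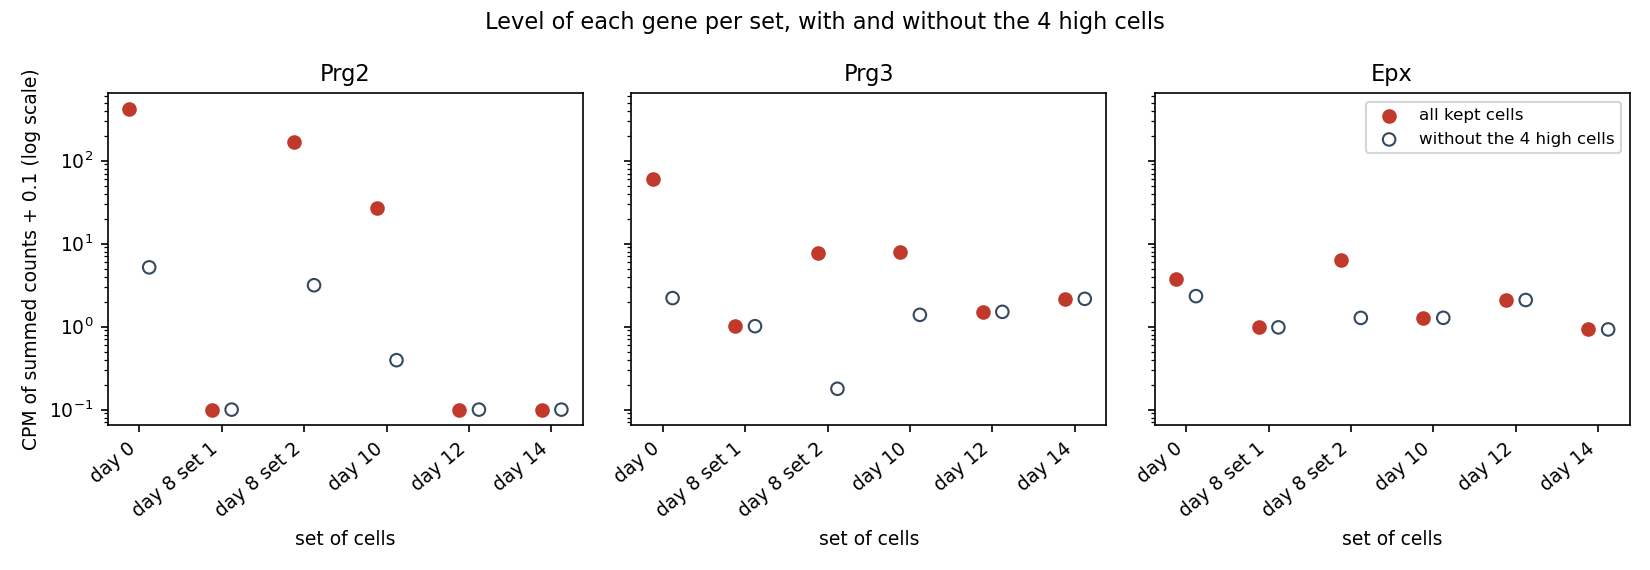
CPM of Prg2, Prg3 and Epx in the summed counts of each set, plus 0.1 and on a log scale, with all kept cells (filled points) and without the 4 high cells (open points). Prg2 on day 0 is 424 CPM with the 2 high cells and 5.08 CPM without them, while Epx moves least.

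The 4 high cells shared large amounts of Prg2 and differed in Epx. The first high cell of day 0 had 3402 reads of Prg2, 676 of Prg3 and 22 of Epx among 256709 reads, or 13252, 2633 and 85.7 CPM. The second high cell of day 0 was the highest by CPM, with 3501, 288 and 2 reads among 62161, or 56322, 4633 and 32.2 CPM. The high cell of day 8 set 2 had 4209, 194 and 130 reads among 101347, or 41531, 1914 and 1283 CPM. The high cell of day 10 had 725 reads of Prg2, 178 of Prg3 and 0 of Epx among 133734, or 5421 and 1331 CPM, and 3 reads of Epx there would be 22.4 CPM. Together the 3 genes took between 0.675% and 6.10% of all reads in genes of a high cell.

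Set per length of exon, Prg2 was above Prg3 and Prg3 above Epx in all 4 high cells. In CPM per kb of exon, Prg2 ran between 6469 and 67209, Prg3 between 1403 and 4882, and Epx between 0 and 469. The ratio of Prg2 to Prg3 reads was 5.03 in the first day 0 cell (interval 4.63 to 5.47), 12.2 in the second (10.8 to 13.8), 21.7 in the day 8 cell (18.8 to 25.2) and 4.07 in the day 10 cell (3.45 to 4.83). Apart from the first day 0 cell and the day 10 cell, whose intervals overlap, the ratios differ beyond counting error, which with PCR copies is not the whole error. Epx made up 2.87% of the reads of the 3 genes in the day 8 cell (2.40 to 3.40%), against 0.537%, 0.0528% and 0% in the others. Epx was therefore not in proportion to the other 2 genes.

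**Figure D3:**
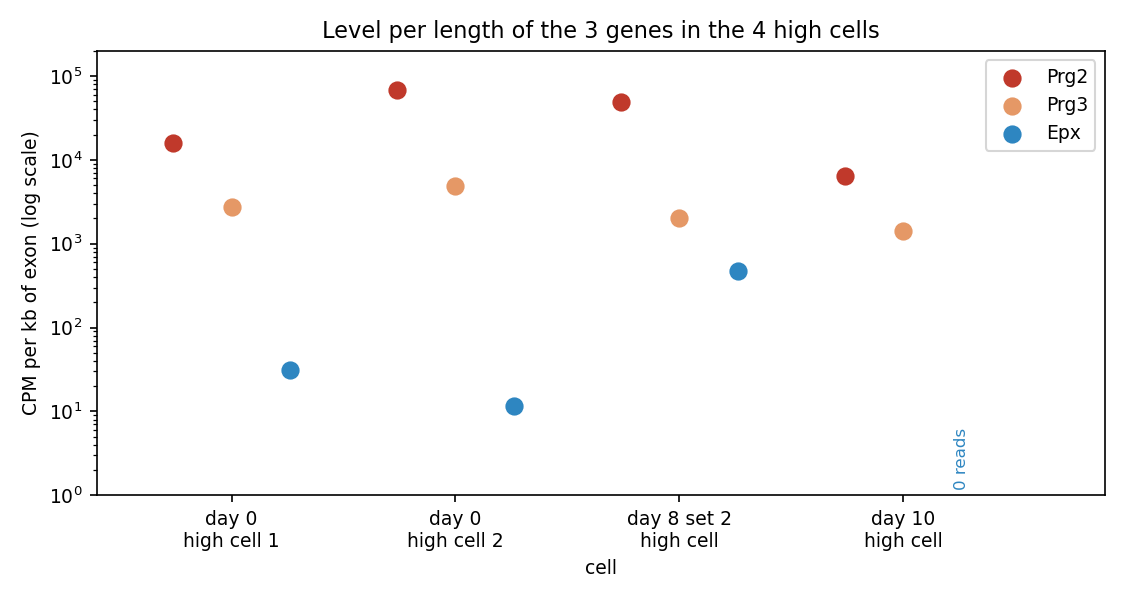
CPM per kb of exon (log scale) of Prg2, Prg3 and Epx in each of the 4 high cells. Prg2 is the highest and Epx the lowest in each cell, and Epx runs between 0 reads on day 10 and 469 in day 8 set 2.

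Single reads of the 3 genes were more widely spread than the high cells. Of the 500 kept cells, 145 had at least 1 read of any of the 3, and 32 had reads of 2 or more. All 3 genes were read in 6 cells, Prg2 and Prg3 alone in 11, Prg2 and Epx alone in 13, Prg3 and Epx alone in 2, Prg2 only in 21, Prg3 only in 18 and Epx only in 74. With at least 5 reads asked of each gene, the genes met only in the high cells: 2 cells had all 3, 2 had Prg2 and Prg3, and no other cell had 2 of them. Prg2 was read in 27 of the 92 cells of day 0, in 17 of 93 of day 8 set 2 and in 7 of 93 of day 10, and in none of the 222 cells of the other sets. With each cell thinned to 50000 reads these numbers were 22, 11 and 3. Epx was read in 95 of 500 cells in all 6 sets, and in 28 after thinning. Over the 500 cells, the correlation of log2(CPM + 1), centred within sets, was 0.62 between Prg2 and Prg3, 0.36 between Prg2 and Epx and 0.20 between Prg3 and Epx. Without the 4 high cells, a choice made after seeing the data, the values over 496 cells were 0.25, 0.17 and −0.04. Wells that share an index are among these cells.

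Where Prg2 was read outside the high cells, the well tended to share an index with a high cell. The day 12 table names the pair of Nextera indexes of each well, with a first index shared by 8 wells and a second by 12. The other tables name none, and the same order of columns was assumed for them. Cell numbers ran in 1 order in 5 of the tables but not in all, so this assumption may fail for a set. In the 3 sets with a high cell, Prg2 was read in 23 of 28 wells that share the first index with one (82.1%, interval 63.1 to 93.9%), with 135 reads in all and at most 16 in a well. It was read in 15 of 42 wells that share only the second index (35.7%, interval 21.6 to 52%), with 23 reads, and in 10 of 212 wells that share neither (4.72%, interval 2.28 to 8.50%), with 11 reads. The sets differed in this. On day 0, Prg2 was read in 11 of 20 wells sharing only the second index and in 2 of 60 sharing neither. These numbers were 1 of 11 and 8 of 75 in day 8 set 2, and 3 of 11 and 0 of 77 on day 10. In the 3 sets with no high cell Prg2 was read in 0 of 287 wells. The 135 reads are 1.14% of the Prg2 reads of the high cells. Whether these reads came from the cells in those wells was not tested.

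Prg3 was read in 15 of the 28 wells sharing the first index (53.6%, interval 33.9 to 72.5%) and in 2 of 42, 8 of 212 and 11 of 287 in the other classes of wells (4.76%, 3.77% and 3.83%). Epx was read in 11 of 28 (39.3%, interval 21.5 to 59.4%), 9 of 42, 35 of 212 and 38 of 287 (21.4%, 16.5% and 13.2%). Prg3 and Epx were thus also read in wells with no link to a high cell, unlike Prg2 in the sets with none. Wells here include the cells left out for depth.

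**Figure D4:**
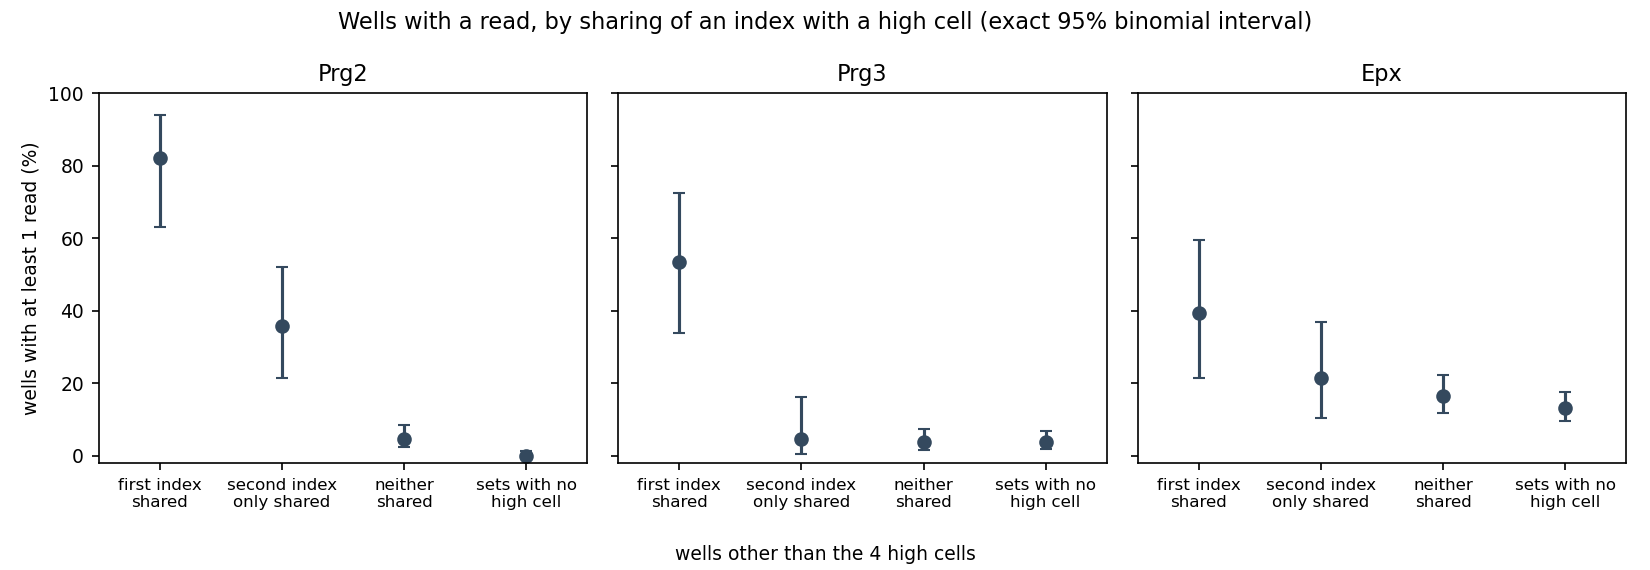
Share of wells with at least 1 read of Prg2, Prg3 or Epx, with exact 95% binomial intervals, for wells that share the first index, only the second or neither with a high cell of their set, and for sets with no high cell. Pooled over sets, Prg2 falls off across the 4 classes, at 82.1%, 35.7%, 4.72% and 0%, while Epx ends at 13.2% in sets with no high cell.

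Prg3 was also found alone. In 7 kept cells it had at least 5 reads, between 5 and 15, with 0 reads of Prg2 and Epx. None of the 7 shares an index with a high cell of its own set. On days 12 and 14 none could, because those sets have no high cell. Their levels ran between 29.4 and 182 CPM, and they belonged to days 0, 10, 12 and 14. The cell with the most Prg3 outside the high cells, at 27 reads, was in day 8 set 1, which had no Prg2. That cell is not among the 7 because Epx was also read in it. Cebpe, a transcription factor of late granulocyte precursors that is needed for eosinophils, was read in 4 of the 7 at up to 353 CPM. It was read in 233 of the 496 kept cells outside the high cells. Elane, neutrophil elastase, was read in all 7 at 7284 to 15246 CPM, and in all 496 at a median of 6013 CPM. Epx was found alone, at 5 to 11 reads and 14.1 to 66.2 CPM, in 6 cells of days 0, 8 and 12. Mpo was read in all 6 at 23773 CPM or more, and in all 496 at a median of 30116 CPM. Cpa3, the carboxypeptidase of mast cells and basophils, was read in 1 of the 6 and in 176 of the 496.

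Epx was read more often in cells with more Mpo. Outside the high cells, Epx was read in 69 of 248 cells with Mpo at or above its median of 30116 CPM and in 23 of 248 cells below it. Median depth in the 2 classes was 193932 and 161508 reads, and after thinning the numbers were 17 and 9. Whether any Mpo reads were counted as Epx, given the identity of their transcripts, was not tested.

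The other genes of the high cells were compared with those of other cells of the same set, by summing counts within each set for the 4 high cells (3 sets) and for the 274 other kept cells of those sets. This comparison was added after the values were seen. It asks what else a GMP with much Prg2 expresses. With edgeR's quasi-likelihood test and Benjamini-Hochberg adjustment over 11932 genes, the 3 members left out, 5 genes were higher (0.0419% of those tested) and 9 were lower (0.0754%). At an unadjusted p under 0.05 the numbers were 50 and 1061. The median log2 fold change of all genes tested was −1.41, and values are also given relative to it. With another scaling, DESeq2's size factors, that median was −1.07. The fit rests on 2 residual degrees of freedom, and its spread was pooled over genes. The sum of high cells was 1 cell in day 8 set 2 and 1 cell on day 10, so differences between single cells enter it. Without the set as a block the test called 0 genes in either direction (335 and 2550 at an unadjusted p under 0.05).

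Ldhc, Rnase12, Cpa3 and Mcpt8 were higher in the high cells of all 3 sets. Cpa3 had 2474, 1126, 1273 and 329 CPM in the first and second high cell of day 0, the day 8 cell and the day 10 cell, against a median of 0 and a mean of 131 CPM in the 496 other kept cells. Its log2 fold change was 3.83 (SE 0.75, adjusted p = 0.000526), or 5.24 above the median gene. Mcpt8, a basophil protease, had 183, 161, 2487 and 875 CPM in the same order, against a median of 25.5 CPM in other cells (log2 fold change 3.28, SE 0.79, adjusted p = 0.0269). Rnase12, a gene of the ribonuclease A family, had 354, 0, 197 and 247 CPM and was read in 31 of 496 other cells (log2 fold change 6.79, adjusted p = 0.00322). Ldhc, a lactate dehydrogenase known from testis, had 85.7, 0, 326 and 202 CPM and was read in 6 of 496 other cells (log2 fold change 10.9, adjusted p = 2.17e-05). Both had 0 reads in the second day 0 cell, the shallowest of the 4. A tested gene needed a read in 10% of the cells of 1 class. Ldhc and Rnase12 met this only through the high cells, with reads in 75% of them. In other cells of the sets they were read in 1.46% and 6.57%. Their p-values are therefore a description and not independent of the choice of cells. Slc34a2, a phosphate transporter that took 16% to 32.6% of reads in the high cells, also passed, but it was higher in 2 sets and lower in the third. In other cells of the sets it took a median of 15.2% of reads, with a range of 3.15% to 61.7%. Its reads are part of the total that scales CPM, and their effect on other levels was not tested. Slc34a2 was singled out after its values were seen. Of the 11 alternatives, Ldhc and Cpa3 passed in 8, Rnase12 and Slc34a2 in 6 and Mcpt8 in 4. Mcpt8 no longer passed when any 1 of the 3 sets or the first day 0 high cell was left out (log2 fold change 2.59 to 3.86, adjusted p = 0.0594 to 0.952).

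Ly6c2, AA474408, Emb, Prtn3 and Ctsg were among the genes that fell. Ly6c2, a surface antigen of monocytes and their precursors, had 105, 64.3, 0 and 22.4 CPM in the high cells in the same order, against a median of 486 and a mean of 2373 CPM in other cells. Its log2 fold change was −6.17 (SE 0.74, adjusted p = 9.81e-13), or −4.76 relative to the median gene. Ly6c2 passed in 10 of the 11 alternatives, all but the fit without the set as a block. Emb, embigin, a cell surface glycoprotein, had 93.5, 547, 29.6 and 127 CPM, against a median of 707 CPM (log2 fold change −3.45, adjusted p = 0.0105). Emb passed in 4 of 11 alternatives, and not when any 1 set or the first day 0 high cell was left out (adjusted p = 0.0594 to 0.218). AA474408 was read in 1 of the 4 cells, at 9.87 CPM, and in 301 of 496 others (log2 fold change −8.04, adjusted p = 0.000526, passed in 8 of 11 alternatives). The other cells had a median of 4.95 CPM, below the high cell that had a read, with a mean of 960 and a highest value of 126181 CPM.

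A pair of serine proteases of the neutrophil primary granule passed the test with smaller changes. Prtn3, proteinase 3, had 888, 756, 997 and 2692 CPM, against a median of 4157 CPM (log2 fold change −2.16, SE 0.42, adjusted p = 0.000526). Ctsg, cathepsin G, had 3786, 7416, 1569 and 5990 CPM, against a median of 7525 CPM (log2 fold change −1.70, SE 0.33, adjusted p = 0.000526). Relative to the median gene these are −0.75 and −0.29. Actb, at −1.41, stood at the median gene itself, and Eif5a, a translation factor, was at −2.54. Mir6236 had a log2 fold change of −3.30, yet its 19.5, 80.4, 98.7 and 44.9 CPM in the high cells lay around the median of 57.2 CPM in other cells, whose mean was 1824 and highest value 127153 CPM. Ctsg and Prtn3 passed in 9 of 11 alternatives, Actb and Eif5a in 7 and Mir6236 in 6. S100a8, a calcium-binding protein of neutrophils and monocytes, had 0 reads in the 4 cells and was read in 160 of 496 others, so its log2 fold change was −5.59 or lower, the value with 3 reads over the 4 cells together (adjusted p = 0.0074, passed in 7 of 11 alternatives).

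**Figure D5:**
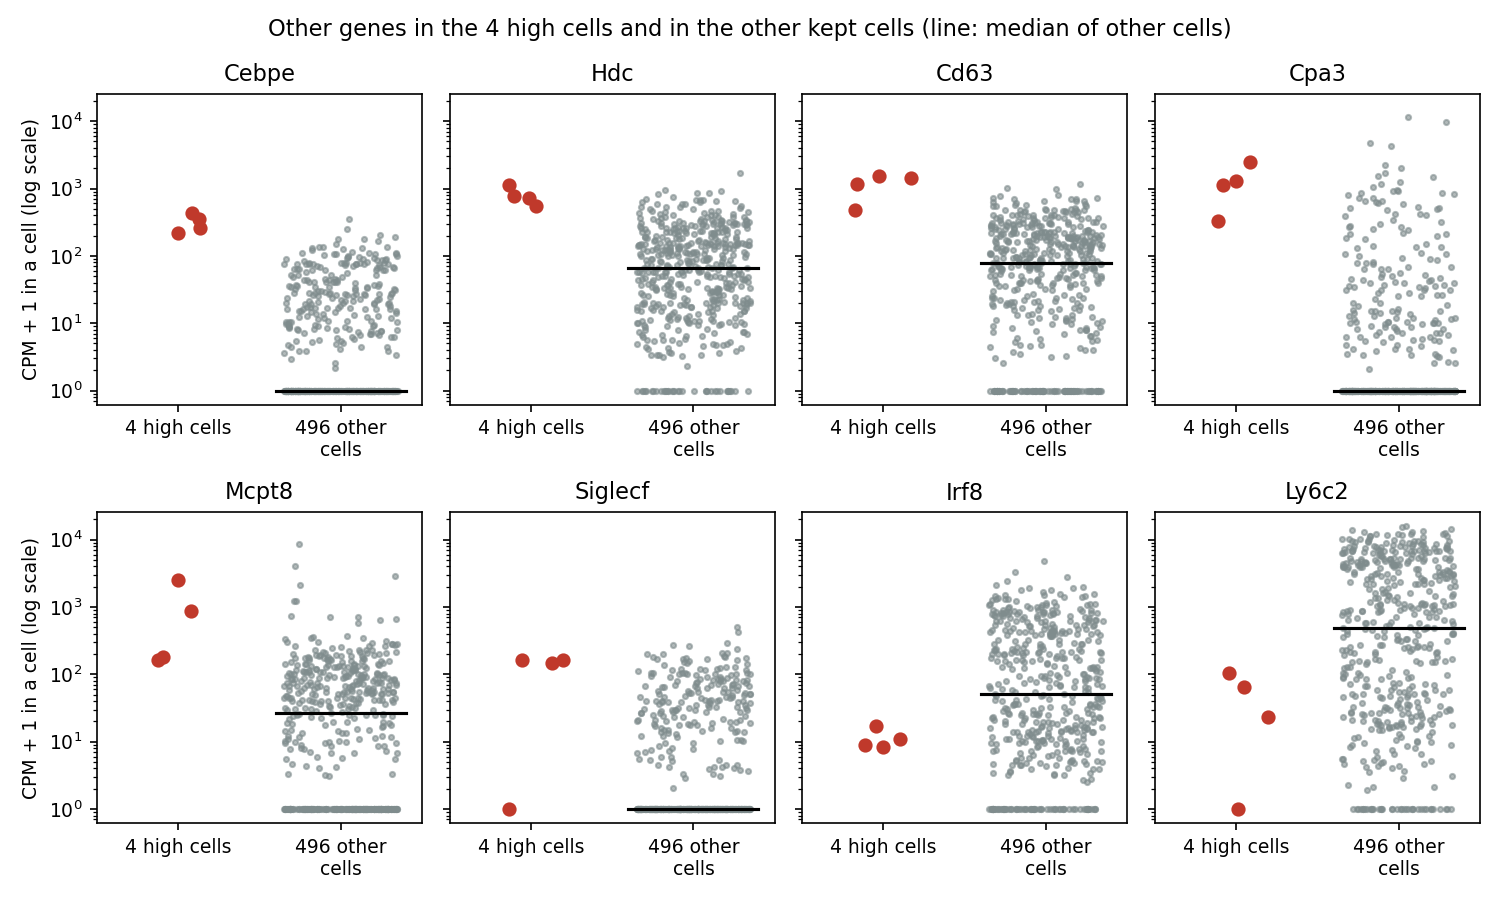
CPM + 1 (log scale) of 8 genes in the 4 high cells and in the 496 other kept cells, each point a cell and the line the median of the other cells. Cebpe, Hdc, Cd63 and Cpa3 sit at or near the top of the other cells, Siglecf is at 0 in 1 high cell, and Irf8 and Ly6c2 sit low.

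Cebpe was the gene, among those read in all 4 high cells, that the fewest other cells reached. It stood at 351, 257, 217 and 426 CPM in the high cells in the same order, against a median of 0 and a mean of 20.5 CPM elsewhere, and 494 of 496 other cells lay below the lowest of the 4. In the mouse, C/EBPε is required for eosinophil and neutrophil maturation. The exceptions were a day 0 cell with 246 CPM of Cebpe and a day 12 cell with 353 CPM. The day 12 cell had 10 reads of Prg3. The day 0 cell had 5, 1 and 1 reads of Prg2, Prg3 and Epx. By the assumed order of columns, its well shares the first index with a high cell of day 0. Prg2 was read in 13 of the 14 day 0 wells that share it with a high cell. Whether the Prg2, Prg3 and Epx reads came from the cell in this well was not tested. Cebpe did not pass the adjusted test of summed counts. Trib1, a pseudokinase known to limit C/EBPα and to act in eosinophil development, had 191, 16.1, 158 and 150 CPM, against a mean of 4.71 CPM, and 34 other cells reached its lowest value.

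The 14 eosinophil transcription factors were otherwise mixed, with 0 higher and 0 lower. Their median log2 fold change was −0.13, against −1.41 for all genes. Gata1, the GATA factor on which eosinophils depend, had 62.3 and 78.9 CPM in the first day 0 cell and the day 8 cell and 0 in the others, and Gata2 had 97.4, 0, 9.87 and 202 CPM. Spi1, which encodes PU.1, was present in all 4 at 177 to 764 CPM, against a median of 259 CPM. Irf8, a factor of monocytes and dendritic cells that is also used by eosinophils, was low, at 7.79, 16.1, 9.87 and 7.48 CPM, against a median of 50.3 and a mean of 286 CPM, and 319 of 496 other cells lay above the highest of the 4. Gfi1 was read in 2 of the 4, at 93.5 and 19.7 CPM. Cebpa, Cebpb, Id1 and Zfpm1 were at or below 98.7 CPM in each, Ets1 at or below 32.2 CPM, and Id2 was not read. Xbp1, the secretory stress factor that eosinophils need, ran between 74.8 and 592 CPM, against a median of 228 CPM.

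Surface receptors of mature eosinophils were partly present. Siglecf, the eosinophil lectin, had 160, 161 and 148 CPM in 3 high cells and 0 in the day 10 cell, against a mean of 26.4 CPM, with reads in 209 of 496 other cells. Il5ra, the interleukin 5 receptor, was read in 1 high cell at 7.79 CPM and in 3 of 496 others. Ccr3, the eotaxin receptor, and Adgre1, F4/80, had 0 reads in the 4 cells, and were read in 13 and 45 others. Il1rl1, the interleukin 33 receptor, had 54.5 and 113 CPM in the day 0 cells and 0 in the others. The shared receptor chains Csf2rb and Csf2rb2 had 867 and 194 CPM in the day 10 cell, above all 496 other cells, while Csf2rb had 85.7, 354 and 0 CPM in the other 3 and Csf2rb2 none. Il3ra was read in all 4, at 1 to 3 reads and 7.48 to 48.3 CPM, and in 287 of 496 others. Cd24a was read in all 4 at 209 to 386 CPM, against a median of 383 CPM in the others. Ptger3 was read in 1 high cell and in 186 of 496 others. Of the 6 tested genes of the list, 0 were higher and 0 lower, with a median of −0.31.

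Eosinophil ribonucleases appeared in single cells. Ear2 had 853 CPM in the second day 0 cell and Ear6 93.5 CPM in the first, and neither gene had a read in any of the 496 other cells. These genes belong to a family of near-identical copies, so which copy the reads came from is uncertain. Ear1, Ear10, Alox15 and Ltc4s had 0 reads in the 4 cells. Alox5, 5-lipoxygenase, was read at 296 CPM in the day 8 cell alone, and Alox5ap, its activating protein, was read in all 4 at 15 to 257 CPM, against a median of 130 CPM. The 2 genes of this list that were tested did not pass, with a median of −0.45. Among these eosinophil genes, Cebpe was thus read in 4 of the 4 cells and in 233 of the 496 others. Siglecf was read in 3 and 209, Gata1 in 2 and 49, and Ear2 or Ear6 in 2 and 0. Il5ra was read in 1 and 3, and Ccr3 in 0 and 13. Such counts of reads do not define the type of these cells.

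Of 16 genes of granule cargo and secretion, 0 were higher and 0 lower, with a median of −0.98. Cd63, a granule membrane tetraspanin, had 1527, 1448, 1154 and 479 CPM, against a median of 77.6 CPM, and 28 other cells reached the lowest value. Cd63-ps, a copy of Cd63 in the annotation, had 1480, 1142, 750 and 464 CPM, and reads may be split between them. Srgn, serglycin, which packs granule proteins, had 2493, 3475, 8111 and 4748 CPM, against a median of 1444 CPM. The other 14 secretory genes included Calr at 1825 to 2832 CPM, against 1781 CPM, and Hspa5 at 142 to 1422 CPM, against 1033 CPM. Sdf2l1 and Manf, proteins of the endoplasmic reticulum, had 46.7 to 96.5 and 16.1 to 393 CPM, against medians of 239 and 205 CPM, and Creld2 had 0 reads in 2 of the 4 cells. The summed level, of which Srgn was a large part, ran between 10476 and 13770 CPM in the high cells, against a median of 8848 CPM in other cells of the sets.

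Some genes of basophils and mast cells were read in all 4 high cells. Hdc, histidine decarboxylase, which makes histamine, had 717, 1110, 543 and 778 CPM, against a median of 64.3 CPM, and 19 other cells reached the lowest of these. Fcer1g was at 175 to 878 CPM, against 307 CPM, and Ms4a2, the FcεRI beta chain, had 50.6, 0, 88.8 and 613 CPM. Fcer1a, Gzmb, Prss34, Cma1, Tpsab1, Tpsb2 and Cd200r3, 7 of the 12 genes of the list, had 0 reads in all 4, and each was read in at most 6.85% of the 496 other cells. The 12 genes summed to between 2864 and 5269 CPM in the high cells, and to between 59.98 and 18701 CPM, median 617, in the 274 other cells of the sets. Of 5 tested, 2 were higher (Cpa3 and Mcpt8) and 0 lower, with a median of 3.28. Their part in the other differences was not tested.

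Primary granule genes of neutrophils summed to between 24332 and 66749 CPM in the high cells, against a median of 60133 CPM in other cells of the sets. Mpo had 48401, 33333, 16113 and 34479 CPM, against a median of 30116 CPM, and Elane 10210, 12291, 523 and 13086 CPM, against a median of 6013 CPM. Of the 12 genes of the list, 0 were higher and 2 lower, Prtn3 and Ctsg, with a median of −0.91. Hp, haptoglobin, had 0 to 59.8 CPM, against a median of 263 CPM, and Igsf6 had 50.6, 16.1, 464 and 7.48 CPM, against 220 CPM. Of 12 late neutrophil genes, 9 had no read in the 4 cells. Among them Ltf, Camp, Ngp and Ly6g were read in 0.806% to 8.87% of other cells. Lcn2 had 112 CPM in the day 10 cell. The list summed to between 0 and 120 CPM in the high cells, against a median of 48.2 CPM and a highest value of 37770 CPM in other cells of the sets. Of 4 tested, 1 was lower, S100a8, with a median of −3.48.

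Of the 13 monocyte genes, 12 were tested, with 0 higher, 1 lower (Ly6c2) and a median of −5.28. The list summed to between 105 and 662 CPM in the high cells, against a median of 888 CPM and a range of 24.7 to 17325 CPM in other cells of the sets. Klf4, Fn1, Cx3cr1 and Lgals3 had 0 reads, and were read in 10.9% to 24.2% of other cells. Csf1r, the receptor for M-CSF, was read in 2 of 4 cells at up to 15 CPM, against a median of 12.8 CPM. Csf2ra, the GM-CSF receptor, was read in all 4 at 44.9 to 238 CPM, against 33.8 CPM, Psap had 245, 161, 29.6 and 15 CPM, against 93.9 CPM, and Ms4a6c 50.6, 0, 197 and 7.48 CPM, against 33.7 CPM.

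Genes of the remaining lists gave 0 calls. The median was −3.02 over 15 mitosis genes and −1.95 over 16 DNA replication genes, and Top2a ran between 9.87 and 467 CPM in the high cells, against a median of 159 CPM. The first day 0 cell had reads of 14 of 15 mitosis genes and the day 8 cell of 4. Medians were −1.22 for 12 stem and multipotent genes, −3.29 for 3 dendritic cell genes, −1.24 for 4 lymphoid genes, 1.33 for 4 macrophage genes, 0.56 for 5 erythroid and megakaryocyte genes and −0.23 for 7 genes of the sort gate. C1qa, C1qb and C1qc of the macrophage list were at 0 in the 4 cells, as were Cd3e, Siglech and Pf4, and each was read in at most 5.04% of other cells. Other genes of that list were read: Slc40a1 had 175 and 89.7 CPM in the first day 0 cell and the day 10 cell. Vcam1 had 227 CPM in the day 8 cell, and Hmox1 77.9 CPM in the first day 0 cell. The macrophage list summed to between 32.2 and 257 CPM in the high cells. In other cells of the sets the median was 9.96 CPM and the highest value 376 CPM. Itga2b, CD41, an integrin of megakaryocytes and early progenitors, had 46.7, 322, 247 and 224 CPM, against a mean of 20.7 CPM, and Ifitm1 reached 5264 CPM in the day 10 cell, above all 496 other cells. Of the sort markers, Kit had 16.1 to 125 CPM and Cd34 had 207 to 531 CPM, against medians of 58 and 332 CPM, and Ly6a, Sca-1, was at 0.

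Of the RNA quality measures, some lay on 1 side of the median of other cells in all 4 high cells, and some did not. Malat1, a nuclear RNA, stood at 1118, 1158, 444 and 912 CPM, against a median of 227 CPM, with 92 other cells at or above the lowest of the 4, and Neat1 at 144, 161, 207 and 0 CPM, against 29.4 CPM. Reads in genes per spike-in read were 37.9, 29.9, 32 and 27.8, against medians of 41.1 on day 0, 71.8 in day 8 set 2 and 59.9 on day 10. After thinning to 50000 reads the high cells had 5585, 4717, 4837 and 4427 genes, against medians of 5123, 5879 and 5508. The part of these measures in the differences above was not tested. Over the 3 sets the mean difference was −698 genes (p = 0.5) and −0.85 log2 reads per spike-in read (p = 0.25), by an exact two-sided sign-flip permutation test whose smallest possible p is 0.25 (both adjusted p = 0.5 over the 2 tests).

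Among the 2026 genes other than the members that were read in all 4 high cells, few were as seldom reached elsewhere as Cebpe. After Cebpe (2 other cells), Cd63-ps (18), Hdc (19), Tent5a (25), Tank (27), Cd63 (28), Ptprs (30) and Klf13 (33) had the fewest other cells at or above the lowest of the 4, and 14 genes were reached by 10% of other cells or fewer. Tent5a, a poly(A) polymerase, had 234, 386, 247 and 748 CPM, against a median of 32.1 CPM. Klf13, a zinc finger factor, had 152, 290, 247 and 157 CPM, against 45.9 CPM. At the other end, Ndufb7, a subunit of respiratory complex I, stood at 23.4 to 39.5 CPM in the high cells, against a median of 144 CPM, and 452 of 496 other cells lay above the highest. Fkbp4, a chaperone partner (59.2 to 129 CPM, against 523 CPM), H2afy, the histone macroH2A1 (197 to 343 CPM, against 1080 CPM), and Eif5a (345 to 756 CPM, against 2201 CPM) followed. This order was chosen after the values were seen and carries no test.

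Cebpe, Hdc, Cpa3 and Cd63 were chosen because few other cells reach them, and the limit used is the lowest value in the high cells, so the high cells meet it by construction and the counts that follow are a description. No other cell had all 4 at or above the lowest value in the high cells, and 2 of 496 had 3 of them, 1 in day 8 set 2 and 1 on day 12, with no read of Prg2, Prg3 or Epx in either. The 2 sets that lack Prg2 and have more than 80 cells still carried these genes: Cpa3 stood at 154 CPM in day 8 set 1 and 58.1 CPM on day 12, Hdc at 91.3 and 155 CPM, and Cebpe at 16.8 and 28.4 CPM.

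The class planned first, cells with at least 100 CPM of the 3 genes, held 10 cells: 3 on day 0, 5 in day 8 set 2 and 2 on day 10. It joined the 4 high cells, 4 cells of day 8 set 2 that share the first index with its high cell, and 2 cells with Prg3 reads alone. The lowest had 102 CPM, and the highest cell outside had 98.7 CPM. Sums over these cells were tested in the 2 sets that had at least 3 of them, against the other kept cells of those sets. Of 12898 genes, edgeR's quasi-likelihood test called 5 higher (0.0388%) and 1 lower (0.00775%), with 98 and 313 at an unadjusted p under 0.05 and a median log2 fold change of −0.38. Cpa3 (3.22, SE 0.49, adjusted p = 3.25e-07), Cd63 (2.15, SE 0.47, adjusted p = 0.0111) and Cxcl10, a chemokine (3.88, SE 0.84, adjusted p = 0.0103), met every condition for a named gene. Ldhc and Rnase12 were higher with reads in 25% of these cells, and S100a8 was lower (−6.21, adjusted p = 1.37e-07). Ldhc and Rnase12 were read in 1.69% and 6.21% of the other cells, so they entered the test only through the positive class. The test had 1 residual degree of freedom, and its spread was pooled over genes. It called 0 genes with a threshold of 10 CPM, with reads of 2 of the 3 genes, or without the set as a block.

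List counts in this class were low as well: the basophil and mast cell list had 1 of 6 higher (Cpa3), the secretory list 1 of 16 (Cd63) and the late neutrophil list 1 of 4 lower (S100a8), and 14 lists had 0 calls. Median log2 fold changes were 0.85 for basophil and mast cell genes, 0.68 for the 14 eosinophil transcription factors, 0.58 for 3 eosinophil enzymes, −0.03 for 8 eosinophil receptors and −0.70 for 12 monocyte genes, against −0.38 for all genes. Positive cells had 4780 and 5581 genes at 50000 reads on day 0 and in day 8 set 2, against 5140 and 5903 in the other cells. The mean difference of −341 genes could not pass an exact sign-flip permutation test on 2 sets (p = 0.5, the smallest it allows), nor could that of −0.28 log2 reads per spike-in read (p = 0.5).

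No gene followed the 3 members closely over single cells. On log2(CPM + 1), centred within sets, the highest correlations with their summed level over 500 cells were 0.25 for 4930423M02Rik, 0.24 for each of Gm6887, Hpn and Adgre4, and 0.23 for Cdh1 and Pcdhgb6, genes read in 10 to 34 cells. Nlrp4c, Gm9451, Dcdc2b and Tmeff2 followed at 0.19 to 0.22. Without the high cells they ran between −0.06 and 0.20, in sparse counts where a weak correlation is no finding.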

How the data were processed

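The authors deposited raw counts for each gene in each cell, made with GSNAP 2015-09-29 on mm10 and counted with HTSeq 0.5.3p3, per the submitters' processing notes. Rows that name no gene took 91.1% of reads in the median cell and were left out of totals, as were the 92 spike-in rows, and 1 column was not used. The members, lists, tests and thresholds were chosen with earlier results of these data known. IDs were matched to GENCODE vM21 symbols (45143 of 46078).

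Cells are not replicates, so counts were summed by set and class. In the high class the sum held 2 cells on day 0, 1 in day 8 set 2 and 1 on day 10. There, differences between single cells cannot be told apart from differences between sets. Tested genes passed filterByExpr by class and were seen in 10% or more of the cells of 1 class. The test was edgeR 4.0.16 (R 4.3.3; TMM, quasi-likelihood, set as a block, Benjamini-Hochberg, threshold 0.05), with DESeq2 1.42.0 as an alternative, and was tested on artificial counts. The prior degrees of freedom of both main edgeR fits were infinite, so the spread was pooled over genes. Their p-values rest on this pooled spread between sets, which may be technical, and not on the spread of each gene. Shares were also taken with cells thinned to 50000 reads, and zeros were bounded at 3 reads. Named genes were up to 12 called rises and 8 falls with a read in at least 50% of the higher class, at least 32 CPM there and 1 direction in all sets, leading list members, all eosinophil list members and the 10 genes most correlated with the members. Python 3.11.15, pandas 2.3.3, scipy 1.17.1 and matplotlib 3.10.9 were used. Alternatives were other thresholds for positive cells, scaling, filters, depth, no set block, sets left out and wells sharing an index left out.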

Additional observations from a re-analysis of the deposited data

Results flagged for a closer look

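One cell left out for depth carried 17 reads of Epx, more than any kept cell outside the 4 high cells, in data that no comparison above uses. It belongs to day 10, with 46372 reads in genes, just under the minimum of 50000, and its Epx level was 367 CPM. It had 0 reads of Prg2 and Prg3 and shares no index with a high cell. Some of its other genes lay outside the range of the high cells. Mcpt8 stood at 23635 CPM, Cpa3 at 6944 CPM and Gata2, a GATA factor of mast cells and basophils, at 647 CPM, while Cebpe was at 0. Mcpt8 and Cpa3 were also among the genes higher in the high cells. Hdc at 755 CPM, Mpo at 28509 CPM and Elane at 6750 CPM lay within the range of the high cells. Irf8 at 43.1 CPM and Ly6c2 at 129 CPM lay above it. Of the 73 cells left out, 5 had a read of the 3 genes.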

How the results depend on the processing

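The number of positive cells, 10 at 100 CPM, was 60 at 10 CPM, 4 at 1000 CPM, 32 with reads of 2 or more of the genes, 145 with any read, 1 among cells of at least 200000 reads and 2000 genes, and 6 without wells that share an index with a high cell (this last chosen after seeing the data). In that class the 5 higher and 1 lower genes became 0 and 0 at 10 CPM (228 and 465 at an unadjusted p under 0.05), with reads of 2 of the 3 genes (162 and 368) and without the set as a block (235 and 796), all with edgeR. Thinning gave 1 higher, and no filter on low counts gave 2 lower. The log2 fold change of Cxcl10 was −0.10 at 10 CPM and −0.040 with reads of 2 genes, and the genes per cell then differed by 20.8. The cause was not tested. For the high cells, a class chosen after seeing the data with 5 higher and 9 lower, DESeq2's Wald test gave 89 and 219, no set block 0 and 0, thinning 2 higher, DESeq2 size factors 5 lower and no filter 18 lower. Leaving out 1 set gave 2 to 3 higher and 3 to 6 lower, and leaving out the first day 0 high cell gave 2 and 16. Over all alternatives for the log2 folds of called genes, 99 values in the high cells kept their side of the threshold and 54 lost it, and in the class of 100 CPM 18 kept it, 19 lost it and the 2 of Cxcl10 above changed sign. Fits with deeper cells alone, with 3 high cells a set or with a set left out of the 100 CPM class could not be made. Depth limits a count of 0 in a cell to 3 reads.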
